A study of Mus musculus with 9 samples.

Results

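The genes of complement components and coagulation factors are described here across pull-downs of RNA from mouse liver. The members were chosen by name: 39 genes of the deposited exon table, out of 33732 gene names in it. RNA was pulled down with an antibody to HuR or with control IgG and sequenced (RIP-seq), 3 libraries of each, beside Input, the lysate RNA, whose 3 libraries are given as a single mean. All groups came from whole healthy liver of C57BL/6 wild-type mice at 8 weeks of age, with no treatment in the labels. Pull-downs were native, without crosslinking in the labels, and each used the lysate of 1 liver, so the p-values measure the spread between livers and pull-downs together.

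Elavl1 encodes HuR, which holds U-rich and AU-rich stretches of RNA, mostly in introns and 3′ UTRs. Complement is a cascade of plasma proteases and pore-forming proteins that tags and lyses microbes. It is started by antibody (classical pathway), by sugar-binding lectins (lectin pathway) or by spontaneous turnover of C3 (alternative pathway). Coagulation is a second plasma protease cascade, which ends when thrombin turns fibrinogen into fibrin, and it is held in check by serpins and by the protein C system. Hepatocytes make nearly all of these proteins and secrete them into blood.

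The values are RPKM, reads per kilobase of exon and per M (mega) of reads. A gene's RPKM was taken over all its merged exons, and the terminal exon is its last listed merged exon block toward the 3′ end. That block usually holds most of the 3′ UTR. The libraries rested on 26.6, 26.3 and 26.9 M reads for HuR and on 15.9, 26.7 and 28.8 M reads for IgG, in the order 1, 2, 3 used for every list of library values, of which 27.9% to 60.5% lay in listed exons. At the median member length, 3 reads are worth 0.0405 to 0.0414 RPKM in the HuR libraries and 0.0378 to 0.0687 RPKM in the IgG libraries. The depth of Input is unknown. Library HuR 2 stood apart from the other HuR libraries, and since the RPKM and fold columns number HuR 2 and HuR 3 differently, which of these is which is uncertain; no group comparison depends on it. The RPKM columns of libraries 1 and 2 are marked M and those of libraries 3 F, letters that the labels do not define. Xist, the RNA of the inactive X chromosome in females, was at 10.2 RPKM in the library labelled HuR 2 (M) and at 0.463 RPKM in that labelled HuR 3 (F), which goes against the marks if they stand for sex, and the major urinary protein gene Mup20 was at 8.80 RPKM, against 104 and 193 RPKM in HuR 1 and HuR 3. Library IgG 3 had 5 members at 0, while every other library had reads in all 39. Markers of hepatocytes (8 of 8 listed) summed to 968 to 996 RPKM in HuR libraries, 288 to 765 RPKM in IgG libraries and 773 RPKM in Input, so the liver label holds. Markers of red blood cells summed to 64.5 to 172 RPKM in HuR libraries and to 98.7 to 234 RPKM in IgG libraries, and Kupffer cell markers to 11.9 to 19 RPKM and 3.29 to 35.0 RPKM. In such bulk samples, fewer cells of a type and less RNA per cell cannot be told apart.

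The stretches that HuR is known to bind were looked for first, as a description of the members. Each longest annotated 3′ UTR (GENCODE M21, GRCm38) was searched on the transcribed strand for the U-rich motif TTTTTTT, the mixed motif TTTATTT, the AU-rich pentamer ATTTA and the longer AU-rich motif TATTTAT, written as DNA. The letters overlap: TATTTAT contains ATTTA, so 1 place can count under both. Members had short 3′ UTRs, from 43 bases in C3 to 3400 bases in Serpinc1, with a median of 362 bases against 1236 bases over 3922 tested protein-coding genes. At least 1 match was found in 18 of 39 members (46.2%), against 76.4% of the tested genes. Over windows of equal length, the last 200 bases, 7 of 28 members with a 3′ UTR that long held a match (25%), against 45.2% of 3600 tested genes. Cfb, F2, F7, F10, Kng2 and Serpinf2 had no match, which says only that these letters are absent from the annotated 3′ UTR. The most matches among the members described by name were in Klkb1, with 25 overlapping matches to TTTTTTT and 7 to ATTTA in 3213 bases, and by length in Fga, with 14.8 per kilobase.

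The following 29-base stretches show 1 match each in the 8 members with the most matches among those given for every library by the rule in the methods (ties by name), which leaves out Masp1, F5, Pros1 and Masp2, and, added after its values were seen, the only match of Cpb2, whose terminal exon stood out. Capitals mark the motif, and sequences run 5′ to 3′ on the gene's strand.
Klkb1, chr8:45268743-45268771, minus strand: catttggcatgTTTTTTTtttttaaaaaa
Serpinc1, chr1:161003928-161003956, plus strand: ctatatataggTATTTATagttaaggtca
Fgb, chr3:83042345-83042373, minus strand: tatgtctgacaTTTTTTTacattatgtta
F13b, chr1:139523525-139523553, plus strand: aatactttcctTATTTATcaatcaaagca
F9, chrX:60029515-60029543, plus strand: ccttttgttaaATTTAaatatataagttc
Fga, chr3:83032105-83032133, plus strand: ttggaatctcaTTTTTTTtttggtcaact
Proz, chr8:13074608-13074636, plus strand: tgagcatatatATTTAgaaggtaattttt
C1s1, chr6:124530670-124530698, minus strand: gatcttccctcATTTAacctgcttgaaat
Cpb2, chr14:75283430-75283458, plus strand: ctctcattattTTTATTTtattgatttca

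Taken over whole genes, no member passed the threshold between HuR RIP and IgG RIP. Of 38 members tested (F11 was under the filter), limma called 0 higher and 0 lower at an adjusted p under 0.05. At an unadjusted p under 0.05, 13 were higher (34.2%), against 27.9% of 5510 genes, and 0 lower. Of the 38, 27 would have passed the filter from the IgG libraries alone. Among the 13, C9, F7, F9, F13b, Pros1, Serpind1 and Cpb2 would not, so the count of 13 supports nothing by itself. At the adjusted threshold the background was 0.672% of genes higher and 0.127% lower. The median log2 change of the members was 1.08, against 0.92 over all tested genes, and it became −0.02 when each library was centred at its median and −0.25 with TMM-like scaling, which also turned the calls over all genes to 50 higher and 342 lower, against 37 higher and 7 lower in the scaling as deposited. Members ranged from −0.92 in C4b to 3.10 in F9, which encodes coagulation factor IX and came closest to the threshold. F9 was at 16.0, 9.25 and 9.30 RPKM in the HuR libraries, against 3.90, 0.590 and 0.0254 RPKM in the IgG libraries and 0.90 RPKM in Input (SE of the log2 change 0.85, adjusted p = 0.0582). All 3 HuR libraries of F9 lay above all IgG libraries. They did so in 15 of 38 members (39.5%), some tested only through HuR libraries, against a background of 31.3% of genes. This count of calls depended on the fit: 9 members were higher when protein-coding genes alone were fitted, 7 without IgG 1, and 1 with a filter of 1 RPKM, while C4b was lower with TMM-like scaling (log2 change −2.45, adjusted p = 0.0451).

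The terminal exon gave a different picture from the rest of the transcript. At the terminal exon, 15 of 38 members tested were higher in HuR RIP (39.5%) and 0 were lower, against 22.6% of 3718 genes higher and 0.0807% lower, and the members' median log2 change was 2.30, against 1.59 over all tested genes. Masp2 was under the filter. Of the 38, 19 would have passed it from the IgG libraries alone, and of the 15 called, 6 would: C1s1, Mbl2, Kng2, Fgg, Proz and Serpinf2. The other 9 were tested only because the exon was at the filter or above in HuR libraries, so their count supports nothing by itself. Over the rest of the transcript, 0 of 33 members tested passed in either direction against 0.0494% of 2024 genes higher, and at an unadjusted p under 0.05, 2 were higher, against 8.4% of genes, and 0 lower, with a median of 0.07, against 0.45 over all. In 20 of 38 members (52.6%) all HuR libraries lay above all IgG libraries at the terminal exon, against 46% of genes. The plot of terminal-exon levels shows these values for each library.

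**Figure D1:**
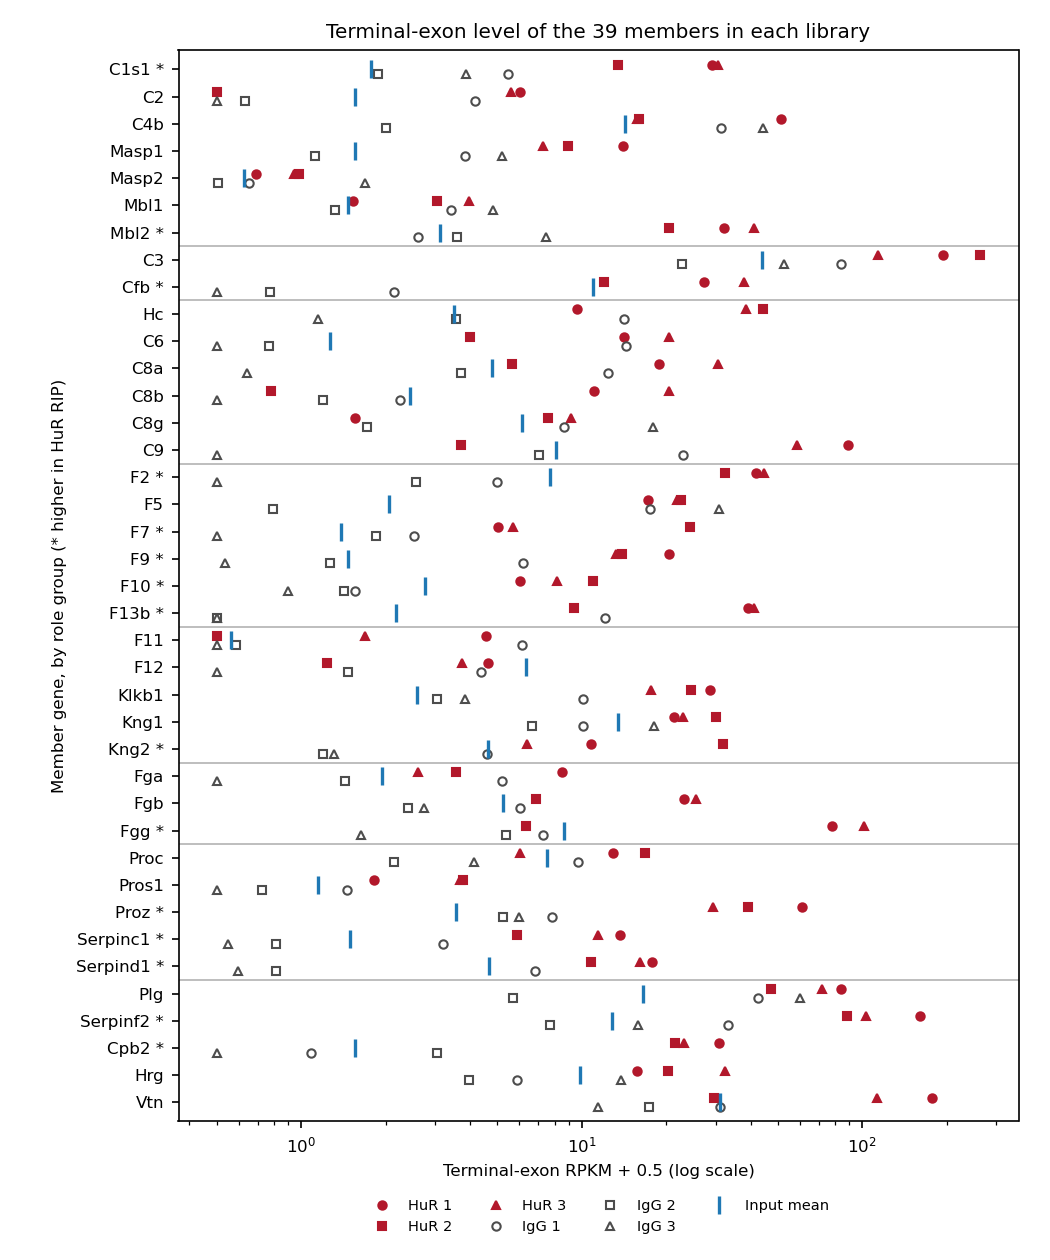
Terminal-exon RPKM plus 0.5 (log axis) of the 39 members in each library, grouped by role; red filled marks are HuR 1 to 3, open grey marks IgG 1 to 3, blue bars the Input mean, and asterisks the 15 members past the threshold. Open grey marks at the left edge are IgG libraries with no reads, as in Cfb, F2, F7 and Cpb2.

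Leaving out single libraries changed how many members passed at the terminal exon, but not the side on which the 15 called members lay. The count was 4 without HuR 1, 15 without HuR 2, 3 without HuR 3, 23 without IgG 1, 0 without IgG 2 and 3 without IgG 3. Cfb, F2 and Cpb2 passed in 5 of these 6 fits each, all but the one without IgG 2, where the lowest adjusted p among the called members was 0.0942. The log2 change of each of the 15 stayed positive and within 1.40 times its value in all 6. Among all 38 members tested, 36 were above 0 with every library, against 3529 of 3718 genes, so this share was that of the background. The members above 0 were 33 without IgG 2 and 37 without HuR 1. Scaling also mattered: with libraries centred at their medians, 0 of 3718 genes and 0 members passed at the terminal exon, and the median of all genes moved to −0.28, from which the members' median was 0.72 away, as it was in the scaling as deposited.

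The share of reads in the terminal exon was followed per library. Terminal exons make up 29.8% of the members' exon length, and they held 61.0%, 32.2% and 65.9% of the members' reads in the HuR libraries, against 22.7%, 18.3% and 18.8% in the IgG libraries and 14.0% in Input. All HuR libraries lay above all IgG libraries, with HuR 2 well below HuR 1 and HuR 3. Other protein-coding genes gave another order when pooled in the same way: terminal exons held 72.8%, 59.4% and 81.6% of their reads in HuR libraries, against 54.6%, 82.0% and 65.9% in IgG libraries and 81.3% in Input, with overlapping groups. By the median over single genes, the members were at 72.8%, 34.6% and 74.3% in HuR libraries, against 35.0%, 16.7% and 11.9% in IgG libraries, and the other protein-coding genes tested at 87.1%, 69.3% and 87.5% in HuR libraries, against 52.3%, 42.3% and 26.4% in IgG libraries. In that measure HuR 2 lay just below IgG 1 among the members, and the groups did not overlap among the other genes. RNA integrity was not measured in the files, and its part in the shift was not tested.

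**Figure D2:**
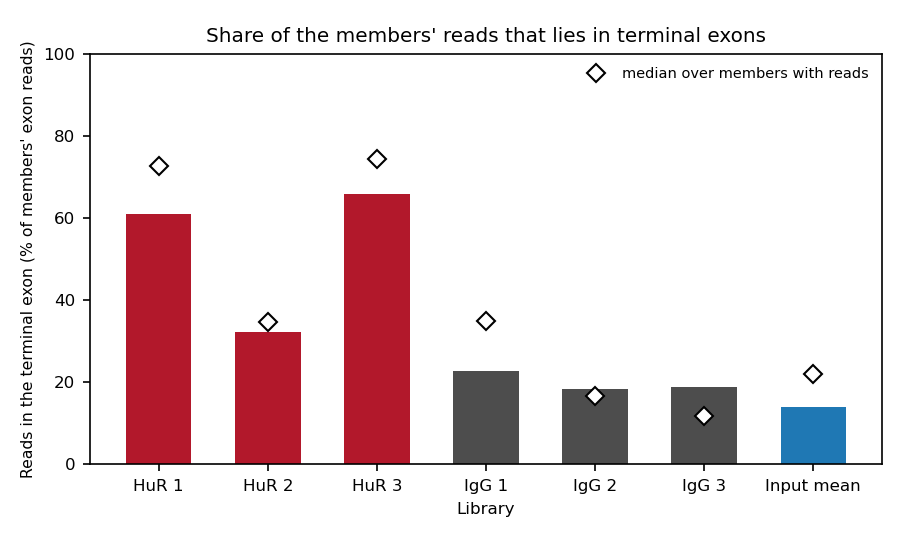
Share of the reads in members' exons that lay in their terminal exons, in percent, for each HuR library, each IgG library and the Input mean. Bars are sums over the 39 members and diamonds the median over members with reads; HuR bars run from 32.2% to 65.9% and IgG bars from 18.3% to 22.7%.

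The members were then compared by the difference between terminal exon and rest of the transcript within each library, in which a library's scaling cancels apart from the pseudocount. Cfb, F2, F7 and Cpb2 were higher in HuR RIP, 4 of 38 members (10.5%), against 5.24% of 3739 genes, and 0 members were lower (0% of genes). The terminal exon of each of these 4 is at 0.5 RPKM or more in fewer than 3 IgG libraries. This fit was filtered on gene RPKM, and F7 and Cpb2 would not have passed that filter from the IgG libraries alone. In IgG 3 both genes had no read, so their difference there is 0 by the pseudocount alone. The count of 4 therefore supports nothing by itself. The members' median was 1.93 and that of all genes 1.30. In 13 of 38 members (34.2%) the HuR libraries all lay above the IgG libraries in this difference, against 32.5% of genes, a share near the background. These calls rested on single libraries: without HuR 2, 14 members passed, and without any one of HuR 1, HuR 3 or an IgG library 0 did.

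**Figure D3:**
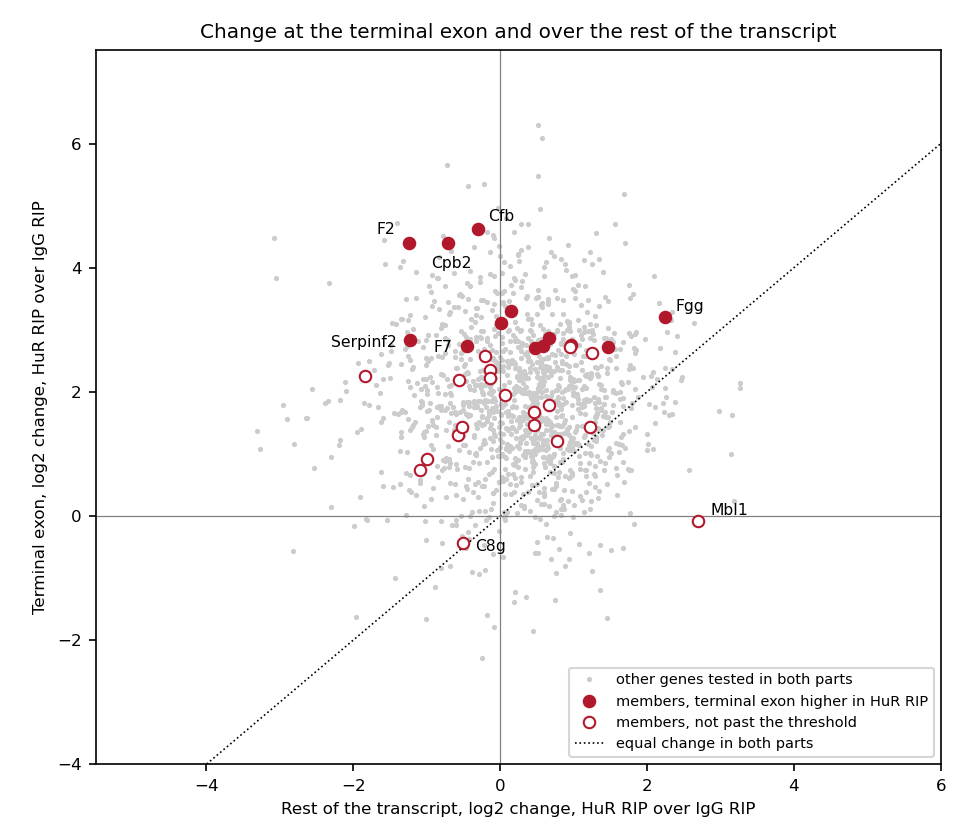
Log2 change, HuR RIP over IgG RIP, at the terminal exon (vertical axis) and over the rest of the transcript (horizontal axis) for the 32 members (red) and 1350 other genes (grey) tested in both; filled red points passed the threshold at the terminal exon. All but 1 of the members, Mbl1, lie above the dotted line of equal change, and F2, Cpb2 and Cfb lie highest. The other genes above that line were not counted. In the difference fit 3088 of 3739 genes were above 0, so lying above the line marks no trait of the members.

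Prothrombin showed the largest split along its transcript. F2 encodes prothrombin, the precursor of thrombin, and lies at chr2:91625320-91636414 on the minus strand, with a terminal exon of 254 bases at chr2:91625320-91625573. That exon was at 41.3, 32.0 and 44.2 RPKM in the HuR libraries, against 4.47, 2.07 and 0 RPKM in the IgG libraries and 7.24 RPKM in Input. These are 279, 214 and 302 reads in the HuR libraries and 18, 14 and 0 reads in the IgG libraries. The HuR libraries lay close together, far above IgG and Input, and the log2 change was 4.41 (SE 0.98, adjusted p = 0.0205). The rest of the F2 transcript was at 3.58, 6.09 and 1.70 RPKM in HuR libraries, against 11.8, 5.12 and 10.6 RPKM in IgG libraries and 9.06 RPKM in Input, with overlapping groups and a log2 change of −1.23 that did not pass (adjusted p = 0.641). In 5 of its 12 exon blocks all IgG libraries lay above all HuR libraries. One of these, the eighth, was at 0, 4.97 and 5.09 RPKM in HuR libraries, against 40.5, 21.7 and 74.7 RPKM in IgG libraries and 45.5 RPKM in Input. Among the members' 490 blocks other than terminal ones, IgG lay above in 23 and HuR in 17. Such blocks were not counted over all genes, so the 5 in F2 support nothing by themselves. The difference between terminal exon and rest was 5.64 higher in HuR RIP (SE 1.06, adjusted p = 0.0419). Over the whole gene these opposite values left F2 at 5.74 ± 1.74 RPKM with HuR antibody and 8.79 ± 3.39 RPKM with IgG (SD, n = 3 for both).

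Cpb2 encodes the carboxypeptidase TAFI, which slows the breakdown of fibrin, and its terminal exon of 325 bases lies at chr14:75283231-75283555 on the plus strand. The exon was at 30.4, 21 and 22.6 RPKM in HuR libraries, against 0.582, 2.54 and 0 RPKM in IgG libraries and 1.05 RPKM in Input, a log2 change of 4.40 (SE 0.94, adjusted p = 0.0181). Of the 11 exon blocks of Cpb2, 5 had no read in any HuR library, although all 11 had signal in Input. The terminal exon took 98.1%, 98.4% and 81.1% of the gene's reads in HuR libraries, against 4.48% and 34.9% in IgG 1 and IgG 2 (IgG 3 had no read in the gene) and 10.5% in Input. The difference from the rest was 5.11 (SE 0.96, adjusted p = 0.0419). Its TTTATTT, shown above, begins at base 26 of the 140-base 3′ UTR.

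Cfb encodes complement factor B, the protease of the alternative pathway, and its terminal exon is 209 bases long, at chr17:34856374-34856582 on the minus strand. It was at 26.8, 11.5 and 37.5 RPKM in HuR libraries, against 1.65, 0.276 and 0 RPKM in IgG libraries, a log2 change of 4.62 (SE 0.94, adjusted p = 0.0151), the largest among the members. Input was at 10.5 RPKM, so all HuR libraries lay above Input and all IgG libraries below it. Over the rest of the transcript the groups overlapped, at 6.14, 5.79 and 1.85 RPKM in HuR libraries, against 8.05, 2.22 and 7.43 RPKM in IgG libraries. The difference was 4.93 (SE 1.08, adjusted p = 0.0419). With annotated 3′ UTR blocks in place of the last block, Cfb no longer passed and F2, F7 and Cpb2 did. The predicted gene Gm20547 overlaps exons of Cfb and of C2 on the same strand, so how reads divide between them is uncertain.

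F7 encodes factor VII, which starts coagulation together with tissue factor. Its terminal exon of 1086 bases, at chr8:13034724-13035809 on the plus strand, was at 4.53, 23.8 and 5.20 RPKM in HuR libraries, against 2.03, 1.35 and 0 RPKM in IgG libraries and 0.886 RPKM in Input (log2 change 2.74, SE 0.96, adjusted p = 0.0476). HuR 2 was the highest of the HuR libraries here, and all 3 lay above IgG. In HuR 1 and HuR 3 every F7 read lay in the terminal exon, and the difference from the rest was 3.19 (SE 0.76, adjusted p = 0.044).

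**Figure D4:**
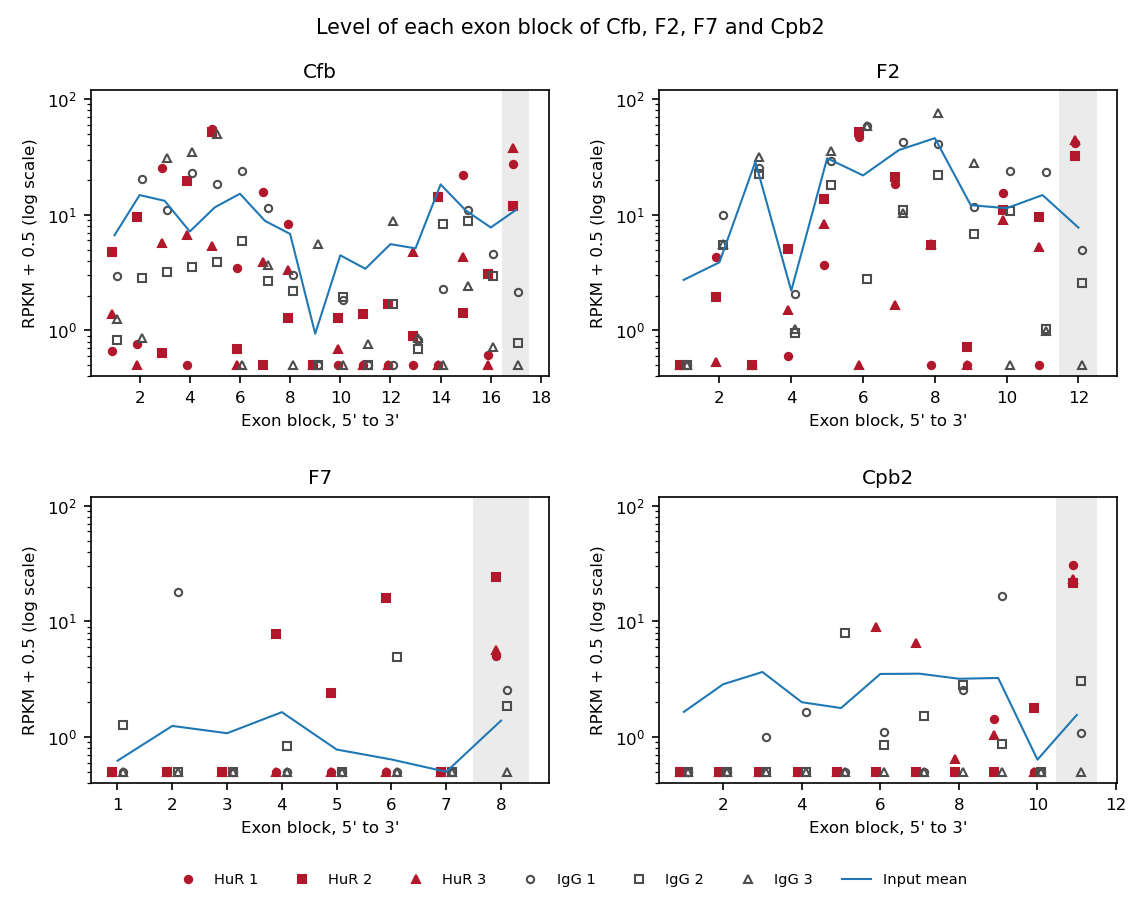
RPKM plus 0.5 (log axis) of each merged exon block of Cfb, F2, F7 and Cpb2 in 5′ to 3′ order, for HuR 1 to 3 (red, filled), IgG 1 to 3 (grey, open) and the Input mean (blue line); the grey band marks the terminal exon. In each gene the HuR libraries lie above all IgG libraries in the terminal block; for F2 the values there are 41.3, 32.0 and 44.2 RPKM in HuR 1, 2 and 3.

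Among the other procoagulant factors, F9, F10 and F13b were also higher at the terminal exon, which makes 5 of 6 in this group, and F5 was not past the threshold. The share over all genes tested was 22.6%. Of these 6 genes, 0 would have passed the filter from the IgG libraries alone, so the count supports nothing by itself. The terminal exon of F9 was at 20, 13.4 and 12.7 RPKM in HuR libraries, against 5.68, 0.764 and 0.0372 RPKM in IgG libraries (log2 change 3.27, SE 0.99, adjusted p = 0.035). F10, which encodes factor X, was at 5.54, 10.5 and 7.65 RPKM in HuR libraries, against 1.05, 0.922 and 0.401 RPKM in IgG libraries (log2 change 2.70, SE 0.85, adjusted p = 0.0368). F13b encodes the carrier subunit of factor XIII, the enzyme that crosslinks fibrin. It was at 38.7, 8.90 and 40.6 RPKM in HuR libraries, against 11.6, 0 and 0 RPKM in IgG libraries (log2 change 4.09, SE 1.16, adjusted p = 0.0294). Its groups overlapped, since HuR 2 lay below IgG 1. F7, F10 and Proz are neighbours on chromosome 8, and all 3 passed at the terminal exon. F5, the cofactor of factor X, was at 16.8 to 22.0 RPKM in HuR libraries and at 0.292 to 30.3 RPKM in IgG libraries, with a log2 change of 1.44 (adjusted p = 0.292).

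The 3 fibrinogen chains, which thrombin turns into fibrin, differed from one another. Fgg, the gamma chain, was higher at the terminal exon with a log2 change of 3.20 (SE 1.06, adjusted p = 0.0407), at 77.2, 5.83 and 101 RPKM in HuR libraries, against 6.75, 4.89 and 1.13 RPKM in IgG libraries and 8.18 RPKM in Input. HuR 2 fell among the IgG values, so the groups overlapped. Over the rest of its transcript Fgg was at 50.5, 24.5 and 27.4 RPKM in HuR libraries, against 14.5, 5.48 and 3.20 RPKM in IgG libraries, and did not pass there (log2 change 2.25, adjusted p = 0.324). Fgb, the beta chain, was at 22.7, 6.37 and 25.1 RPKM at its terminal exon in HuR libraries, against 5.54, 1.90 and 2.25 RPKM in IgG libraries, which did not overlap and did not pass (log2 change 2.23, adjusted p = 0.0768). Fga, the alpha chain, had little signal in the last listed block, 7.99, 3.07 and 2.12 RPKM in HuR libraries, against 4.69, 0.931 and 0 RPKM in IgG libraries. That block belongs to a longer alternative form. The block before it, the fifth, holds the 3′ UTR of the Fga stretch printed above and had most of the gene's reads, at 35.1, 157 and 61.3 RPKM in HuR libraries, against 87.0, 24.8 and 56.7 RPKM in IgG libraries and 65.0 RPKM in Input, with full overlap. The predicted gene Gm30097 overlaps Fgg on the opposite strand, and whether counting used strand is not stated in the labels.

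In the contact system, which starts coagulation on surfaces and releases bradykinin, 1 of 5 members passed at the terminal exon, against 22.6% of all genes. This was Kng2, a kininogen, at 10.3, 31.4 and 5.88 RPKM in HuR libraries, against 4.11, 0.698 and 0.807 RPKM in IgG libraries (log2 change 2.75, SE 0.97, adjusted p = 0.0476). Kng1, its close paralog, was at 20.9, 29.7 and 22.5 RPKM in HuR libraries, against 9.60, 6.16 and 17.6 RPKM in IgG libraries (log2 change 1.20, adjusted p = 0.25). Reads of these near copies may be split wrongly between them, so their values are uncertain. Klkb1, plasma prekallikrein, which has the most motif matches, was at 28.1, 24.1 and 17.1 RPKM at its terminal exon in HuR libraries, against 9.57, 2.56 and 3.35 RPKM in IgG libraries. The groups did not overlap, and the log2 change of 2.24 (SE 0.89) had an adjusted p of 0.0668. Its terminal exon of 3405 bases gave 1571 to 2545 reads in HuR libraries and 233 to 516 in IgG libraries. F12, factor XII, was at 0.738 to 4.13 RPKM in HuR libraries and 0 to 3.88 RPKM in IgG libraries, both below the 5.83 RPKM of Input. F11 stayed under the gene-level filter, and its terminal exon was at 0 to 4.05 RPKM in HuR libraries and 0 to 5.64 RPKM in IgG libraries. Klkb1 shares exons with Gm45753 on the same strand.

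Of the 5 anticoagulants, Serpinc1, Serpind1 and Proz were higher at the terminal exon, against 22.6% of all genes. Serpinc1 and Serpind1 would not have passed the filter from the IgG libraries alone. Serpinc1 encodes antithrombin, the main inhibitor of thrombin and factor X. Its terminal exon of 3577 bases was at 13.2, 5.38 and 10.9 RPKM in HuR libraries, against 2.71, 0.315 and 0.0485 RPKM in IgG libraries and 0.991 RPKM in Input (log2 change 3.11, SE 0.93, adjusted p = 0.0329). In Input the rest of the Serpinc1 transcript was at 8.71 RPKM. The terminal exon held 7.57% of the gene's Input reads over 41.9% of its length. Zbtb37 overlaps Serpinc1 on the opposite strand, so how reads divide between them is uncertain. Serpind1, heparin cofactor II, was at 17.3, 10.3 and 15.7 RPKM in HuR libraries, against 6.31, 0.313 and 0.0964 RPKM in IgG libraries (log2 change 3.30, SE 1.0, adjusted p = 0.035). Proz encodes protein Z, a cofactor for the inhibition of factor X. Its terminal exon was at 60.3, 38.6 and 28.9 RPKM in HuR libraries, against 7.31, 4.75 and 5.5 RPKM in IgG libraries and 3.07 RPKM in Input (log2 change 2.72, SE 0.84, adjusted p = 0.035). Proc, protein C, overlapped between groups at 5.51 to 16.3 RPKM in HuR libraries and 1.64 to 9.17 RPKM in IgG libraries (adjusted p = 0.257). Pros1, protein S, was at 1.32 to 3.27 RPKM in HuR libraries and 0 to 0.96 RPKM in IgG libraries, without passing (log2 change 1.85, adjusted p = 0.0754).

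Among genes of fibrinolysis and vitronectin, Cpb2 and Serpinf2 passed, 2 of 5, against 22.6% of all genes. Cpb2 would not have passed the filter from the IgG libraries alone. Serpinf2 encodes the plasmin inhibitor antiplasmin and had the highest terminal-exon level of the called members. It was at 160.1, 87.8 and 103 RPKM in HuR libraries, against 32.8, 7.20 and 15.4 RPKM in IgG libraries and 12.3 RPKM in Input (log2 change 2.83, SE 0.88, adjusted p = 0.0361), with 2505 to 4618 reads in HuR libraries. Its difference from the rest of the transcript, 4.05, came close to the threshold (adjusted p = 0.0578). Plg, plasminogen, was high in both groups, at 83.6, 46.6 and 71.4 RPKM in HuR libraries, against 42.0, 5.19 and 59.4 RPKM in IgG libraries, and did not pass (log2 change 1.43, adjusted p = 0.231). Vtn and Hrg, plasma glycoproteins, had log2 changes of 2.19 and 1.67 at the terminal exon, with adjusted p-values of 0.0765 and 0.141.

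In the group that starts complement, C1s1 and Mbl2 passed at the terminal exon, 2 of 6 tested, against 22.6% of all genes. C1s1 encodes the classical pathway protease C1s and was at 28.6, 13 and 30.0 RPKM in HuR libraries, against 4.98, 1.38 and 3.38 RPKM in IgG libraries and 1.27 RPKM in Input (log2 change 2.74, SE 0.91, adjusted p = 0.0405). Gm16567 overlaps C1s1 on the opposite strand. Mbl2, a mannose-binding lectin, was at 31.6, 19.9 and 40.6 RPKM in HuR libraries, against 2.12, 3.09 and 6.94 RPKM in IgG libraries and 2.62 RPKM in Input (log2 change 2.86, SE 0.88, adjusted p = 0.035). Mbl1, the other mannose-binding lectin, had the opposite order of values along its transcript. Its terminal exon was at 1.03, 2.56 and 3.45 RPKM in HuR libraries, against 2.93, 0.819 and 4.32 RPKM in IgG libraries, while the rest was at 13.2, 30.2 and 4.73 RPKM in HuR libraries, against 2.95, 4.22 and 0 RPKM in IgG libraries. The rest did not overlap between groups, and neither it nor the difference of −2.78 passed (adjusted p = 0.247 and 0.179). C2 and C4b, which form the C3 convertase, overlapped between groups: the terminal exon of C4b was at 15.3 to 50.8 RPKM in HuR libraries and 1.51 to 43.9 RPKM in IgG libraries, and that of C2 at 0 to 5.53 RPKM and 0 to 3.68 RPKM. Masp1 and Masp2, proteases of the lectin pathway, were at 6.76 to 13.5 RPKM and 0.190 to 0.480 RPKM at the terminal exon in HuR libraries, against 0.618 to 4.68 RPKM and 0.00431 to 1.19 RPKM in IgG libraries. Tardbp overlaps Masp2 on the opposite strand.

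C3, on which all complement pathways meet, had the highest terminal-exon level of all members. It was at 194, 263 and 113 RPKM in HuR libraries, against 83.5, 22.3 and 52.1 RPKM in IgG libraries and 43.5 RPKM in Input. The groups did not overlap, and the log2 change of 1.95 (SE 0.91) did not pass (adjusted p = 0.103). Over the rest of its transcript C3 was at 39.9, 96.6 and 18.9 RPKM in HuR libraries, against 57.8, 19.6 and 55.8 RPKM in IgG libraries, with a log2 change of 0.07.

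None of the 6 genes of terminal complement, which build the membrane attack pore, passed at the terminal exon, and 3 were higher at an unadjusted p under 0.05, against 45.4% of all genes tested. C9, the pore-forming subunit, was at 88.4, 3.20 and 58.2 RPKM in HuR libraries, against 22.5, 6.57 and 0 RPKM in IgG libraries, with HuR 2 below the higher IgG libraries (log2 change 2.63, SE 1.30, adjusted p = 0.12). C8a was at 18.4, 5.14 and 30.0 RPKM in HuR libraries, against 11.9, 3.22 and 0.14 RPKM in IgG libraries (log2 change 2.26, adjusted p = 0.113). C8g, the gamma chain of C8, had the lowest log2 change of the members, −0.43 (adjusted p = 0.734), at 1.05, 7.11 and 8.63 RPKM in HuR libraries, against 8.14, 1.21 and 17.5 RPKM in IgG libraries. Hc (C5), C6 and C8b had log2 changes of 2.35 to 2.72 and overlapped between groups. The last listed block of C6 ends at chr15:4804045, before the annotated gene end at chr15:4814967, so its values do not cover that end. HuR 2 held the fewest reads of the HuR libraries in C6, C8a, C8b and C9, down to 4 in C8b and 27 in C9, against 152 and 753 in HuR 1, but not in Hc, with 553 against 117 in HuR 1, or C8g, with 87 against 13. Without HuR 2, C6, C8b and C9 passed. Gm13449 overlaps Hc on the opposite strand.

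Against Input, terminal exons of the members stood higher in HuR RIP. All 3 HuR libraries lay above the Input mean in 30 of 39 members at the terminal exon, and all 3 IgG libraries in 3. Among the 38 tested these were 29 (76.3%) and 3, against 76.4% and 8.98% of genes, so the share in HuR libraries was that of the background. The median log2 ratio to Input over the members was 2.15, 1.51 and 2.12 in the HuR libraries, against 0.93, −0.84 and −1.34 in the IgG libraries. Over whole genes all 3 HuR libraries lay above Input in 21 of 39 members and all 3 IgG libraries in 2, and among the 38 tested these were 21 (55.3%) and 2, against 68.9% and 20.7% of genes. Input had no replicate values, so these ratios carry no test. The highest exon block by mean RPKM was the terminal one in 21 of 39 members in HuR libraries, in 8 in IgG libraries and in 2 in Input. This was not counted over all genes, so it marks no trait of the members. Other protein-coding genes tested also had higher median terminal shares in HuR libraries, 69.3% to 87.5%, against 26.4% to 52.3% in IgG libraries.

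Members with and without a motif were both found among those higher at the terminal exon. A match was present in 9 of the 15 called members and in 8 of the 23 that were tested and not called. Fga is among these 8, although its matches lie in the block before its terminal one. Fgg is among the 9, although its searched 3′ UTR of 362 bases is longer than its terminal exon of 215 bases. Its matches may thus lie outside that exon, which was not checked. The median log2 change was 2.72 in the 17 tested members with a match and 2.19 in the 21 without. Of the 4 members higher in the difference from the rest, Cpb2 alone held a match. Across 38 members, Pearson's r between the difference and the log2 length of the terminal exon was −0.21 and Spearman's rho −0.16. Genes are not independent replicates and share the same 6 libraries, so these values describe the members only.

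Other genes of the same pathways were counted from lists chosen by pathway. Of 14 other complement components, 6 were tested at the terminal exon and 0 passed by limma (1 higher at an unadjusted p under 0.05), with a median log2 change of 1.06. Among complement inhibitors, 2 were higher there that are named here: C4bp, which inhibits the classical convertase, by 3.42 (adjusted p = 0.0282), and Cd59a, which blocks the membrane attack pore, by 3.91 (adjusted p = 0.0232). Of 20 other genes of coagulation and fibrinolysis, 7 were tested and 2 were higher. These were Fgl1, a fibrinogen-like protein of hepatocytes, by 4.96 (adjusted p = 0.0151), and the protease inhibitor Pzp by 4.70 (adjusted p = 0.0151). From the IgG libraries alone, C4bp, Cd59a and Fgl1 would not have passed the filter, and Pzp would. Of the 7 tested, 3 would, so the count of 2 supports nothing by itself. Of 8 complement receptors, 0 were tested at the terminal exon. Among other secreted liver proteins, 6 of 10 tested albumin and carrier genes and 2 of 7 tested acute phase genes were higher, with medians of 3.40 and 2.29. Of those tested, 7 of the 10 and 6 of the 7 would have passed the filter from the IgG libraries alone. The share higher over all genes tested at the terminal exon was 22.6%.

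The authors' deposited table holds p-values and q-values of its own for each exon. In the authors' deposited table, 47 of 638 member exons with a p-value were under 0.05, and 22 of these lines were terminal exons, in 13 members. The shares over all exons and over all terminal exons were not counted, so these numbers support nothing about the members. The lowest q-value among member exons in the authors' deposited table was 0.541, and the lowest over all exons was 0.11.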

How the data were processed

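The labels' protocols describe native pull-downs from 1 liver each and libraries made with an Ion total RNA kit. Per the submitters' processing notes, Bowtie2, featureCounts and mm10 were used; the sources used here give no versions or settings. The authors deposited RPKM per exon and library, fold values (log2 of RPKM + 1 over Input + 1) and p-values and q-values, whose test the sources used here do not give. In the deposited table every value of at least 1 lacked its decimal mark, which was put back so that the RPKM fitted the authors' folds: all 138826 distinct lines of values matched in 6 of 6 folds, with 0 open to more than 1 reading, although folds written in a damaged exponent form could be checked only as near 0. RPKM and fold columns number HuR 2 and HuR 3 differently; the RPKM names were followed.

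Exon values were multiplied by length, summed per gene and divided by merged exon length (GENCODE M21, GRCm38), giving gene RPKM, and likewise for the terminal block of genes with at least 3 blocks and for the rest. In single exons, 99.5% to 99.9% of values were whole reads within 0.05 of a read. HuR and IgG libraries were compared with limma 3.58.1 (R 4.3.3; trend, robust) on log2(RPKM + 0.5), for features at 0.5 RPKM or more in at least 3 of 6 libraries, two-sided, with Benjamini-Hochberg adjustment over all features and a threshold of 0.05. Changes are on that scale and understate those of low genes. The difference fit subtracts the log2 value of the rest from that of the terminal exon. The scripts were tested on simulated data. Input, a mean, entered no test; a planned count model was not used on RPKM. Same-numbered HuR and IgG libraries deviated together with r = 0.14, 0.12 and 0.09, and their columns share number and letter. Each pull-down used the lysate of 1 liver. Whether same-numbered pull-downs shared a liver was not established, so no pairing was assumed. The members, gene lists and tests were chosen with earlier results of these data known. Named were members past a threshold and, per role group, the 2 highest, those with the largest and smallest gene-level change and the largest difference; the others are given by ranges or counts, and Mbl1 and Cpb2's sequence were added after their values were seen. Alternatives were single libraries left out, a replicate block, other scalings, pseudocounts (0.1, 1), filters, gene sets and terminal definitions. Other steps used matplotlib 3.10.9, pandas 2.3.3, numpy 2.4.6 and scipy 1.17.1 in Python 3.11.15. Since reads are no independent molecules, depth speaks to counting error alone. The result of 1 gene of the inhibitor list is not reported here.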

Additional observations from a re-analysis of the deposited data

How the results depend on the processing

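With no replicate left out, members lost calls in these fits: 0 were higher at the terminal exon with libraries centred at their medians, 0 at the terminal exon and 0 in the difference with no filter, and 10 of 15 at the terminal exon (C1s1, F7, F10, Kng2 and Fgg lost) and 0 in the difference with a pseudocount of 0.1. Annotated 3′ UTR blocks left 3 in the difference, without Cfb. With a filter of 1 RPKM, 1 member was higher over whole genes and 7 in the difference. Fitting protein-coding genes alone gave 9 over whole genes, and TMM-like factors gave 1 lower. Over all genes at gene level (37 higher, 7 lower), the counts were 145 and 21 with a filter of 1 RPKM, 1 and 18 centred, 0 and 0 with no filter, 4 and 1 with no trend, 3 and 1 with a pseudocount of 1, 5 and 4 with quantile normalization, and 0 and 0 without HuR 3 and IgG 1. They were 50 and 342 with TMM-like factors, 728 higher with protein-coding genes alone, and 1 and 0 for the transcript without its terminal exon, a setting chosen after seeing the data. At the terminal exon (840 higher, 3 lower) they were 0 and 0 centred, 0 and 0 with no filter, and 1 lower with a filter of 1 RPKM. In the difference (196 higher, 0 lower) they were 356 and 3 with a filter of 1 RPKM, 0 with no filter, and 1 higher with a pseudocount of 0.1. The cause of these changes was not tested. Leaving out 1 replicate gave 0 to 724 genes higher, 0 to 35 lower and 0 to 7 members higher at gene level, 0 to 1681, 0 to 2 and 0 to 23 at the terminal exon, and 0 to 486, 0 to 3 and 0 to 14 in the difference. A block on the replicate number gave 0 genes higher and 0 lower at gene level, 15 members at the terminal exon and 5 in the difference, and with HuR 2 and HuR 3 exchanged 0, 0, 16 and 5. The 15 at the terminal exon were kept in both blocks, while in the difference 3 of 4 were: F7 was lost in both, Serpinf2 gained in both, F13b gained in the block by number and C8a in the exchanged one. Every library deviated most like the one with its own number in the other group, a hint from the data, not the design. The members' median log2 ratio to Input, 0.65 over whole genes, was 0.75 with a pseudocount of 0.1 and 0.60 with 1. Motif matches were found in 18 members in either choice of 3′ UTR, but not in the same 18. In the transcript with the longest coding sequence, Fga had 0 matches and C6 had 1. The members called at the terminal exon or in the difference kept their sign in each setting run there, among which TMM-like factors and quantile normalization are not. Over whole genes, where both were run, 31 of 38 members were above 0, against 15 with TMM-like factors, 18 centred and 26 with quantile normalization. In the scaling as deposited, 4356 of all 5510 genes tested were above 0. Depth limits short exons with few IgG reads: IgG 3 had no read in 13 terminal exons.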
